A study of Mus musculus with 20 samples.

Results

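Chromatin accessibility of the control intestine and the control stomach was described from lists of ATAC-seq peaks of mouse gut mesenchyme at E13.5. The members were all peaks of the 2 control lists, 103808 in the intestine and 115789 in the stomach, which made 219597 of the 455620 peaks in the 4 lists of the series. The remaining lists came from embryos in which *Eed*, a core subunit of Polycomb repressive complex 2, was deleted in the same cells. In ATAC-seq, Tn5 transposase inserts adapters into open chromatin, and a peak is an interval with more insertions than its surroundings. Control embryos were Bapx1-cre;Rosa26mTmG and *Eed* KO embryos were Eedfl/fl;Bapx1-cre;Rosa26mTmG. The labels give strain C57BL/6 for all of them, whereas the methods describe the Eedfl and Rosa26mTmG lines as mixed in background. Cells positive for GFP were sorted from the intestine or the stomach, and the authors pooled 2 ATAC-seq libraries per condition into 1 list, so that no spread between replicates could be computed and all comparisons of peaks are descriptions. The sort took every descendant of a cell that had expressed *Bapx1*, also called *Nkx3-2*, and did not separate muscle, connective tissue or other mesenchymal cells. RNA-seq of the same kind of cells, with 2 libraries for each control organ and totals of 30236159 to 39606157 gene counts per library, was used as a separate measurement.

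Stomach and intestine form from neighbouring segments of the gut tube, whose mesenchyme builds the muscle and connective tissue and signals to the epithelium. Homeobox genes mark the segments along this tube: *Barx1* acts in the stomach mesenchyme, *Nkx2-3* in the midgut and hindgut mesenchyme, and posterior *Hox* genes toward the hindgut. Promoters are often open in many cell types, whereas distal elements such as enhancers tend to be open in fewer.

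The mesenchymal label was checked against marker genes in both measurements. All 15 gut mesenchyme markers had a peak within 1000 bp of the gene start, hereafter the promoter, in both lists, but so did 87.3% of 16216 tested genes, so that promoter peaks told little about the cell type. The summed RNA level of the markers was 16926 and 20990 CPM in the intestinal and 18473 and 22829 CPM in the stomach libraries, with *Col3a1*, a fibrillar collagen, as the most abundant. An RNA difference was called at an adjusted p under 0.05 from edgeR with a log2 fold change past 1 in either direction, which held for 273 (1.68%) of 16218 tested genes in the direction of the intestine, 549 (3.39%) in the direction of the stomach and 5.07% in all. Leaving out 1 control library at a time lowered these counts to between 149 and 173 and between 214 and 330, and scaling to the spike-in RNA gave 70 and 85. Of the 15 markers, *Dcn* and *Twist1* were called higher in the stomach. All 8 smooth muscle markers also had promoter peaks in both lists, near the share of all tested genes, with RNA at 4644 and 3237 CPM in the intestine and 3120 and 3222 CPM in the stomach (*Acta2* highest), and *Des* and *Synpo2* were called higher in the intestine. The 6 mesothelial markers summed to 363 and 558 CPM in the intestine and 602 and 633 CPM in the stomach, with *Upk3b* highest and *Wt1* called higher in the stomach. RNA of mesenchymal, muscle and mesothelial markers was thus present in both organs.

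Marker sums of other cell types lay below those of gut mesenchyme and smooth muscle. The 20 epithelial markers summed to 68.1 and 108 CPM in the intestine and 112 and 121 CPM in the stomach, with *Krt19* highest. Of their promoters, 17 had peaks in both lists. *Epcam*, *Cldn4* and *Cldn6* were called higher in the stomach. The 12 endothelial markers summed to 24.0 to 29.0 CPM over the 4 libraries (*Kdr* highest), with 3 called higher in the intestine and 2 in the stomach. Enteric neural crest markers summed to 340 and 357 CPM in the intestine and 223 and 207 CPM in the stomach, nearly all of it from *Hand2* and *Ednrb*, while the defining marker *Sox10* was at 0.348 to 1.15 CPM. *Ednrb* was called higher in the intestine and *Erbb3* in the stomach. Blood and macrophage markers reached 2.78 to 12.3 CPM (*Hba-a1* highest), *Gata1* had 0 counts, 8 of the 10 promoters had a peak in neither list, and *Runx1* was called higher in the intestine. Markers of spleen and pancreas mesenchyme stood at 4.47 and 7.61 CPM in the intestine against 727 and 606 CPM in the stomach, where *Barx1* made up most of the sum and *Nkx2-5* and *Isl1* were also called. *Tlx1*, a spleen marker, was at 0 counts in the intestine and at 1.57 and 0.357 CPM in the stomach, and *Ptf1a* was at 0 in all 4 libraries. How much any of these cells contributed to the peak lists was not tested, and in these bulk samples fewer cells with an open region and a less open region in each cell cannot be told apart.

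The regions that the results turn on are shown first as sequence, from the RefSeq copy of GRCm38.p6 and on the plus strand. They are the promoter of *Nkx2-3* (300 bases before its start), the intestine-only or stomach-only region with the highest -log10 q around *Nkx2-3*, *Mecom* and *Barx1*, an intestine-only region of high fold enrichment in an intron of *Cdh13*, the broad intestine-only region near *Mab21l2*, and shared regions with large differences near *Fam13c*, *Crb2* and *Cox7b2*. Regions over 300 bp are shown as their central 300 bases. Capitals mark matches to any of 13 motifs searched on both strands, where neighbouring matches may overlap, as TAATCC and the CTCF motif do at *Crb2*. The motifs were AGATAA (bound by factors of the GATA family), TGTTTAC (forkhead), CNATAAA (posterior HOX and CDX), TAATTG (homeodomain core), CACTTNA (NKX2), CATCTG (HAND and TWIST E-box), ACATTCC (TEAD), TGANTCA (AP-1), CCATTGT (SOX), TGACAG (MEIS and TGIF), TAATCC (PITX and OTX), CNCTNGTGG (CTCF) and the CArG box (SRF). A match describes letters only and is not a bound site. The choice of these regions was made after their values were seen.
Nkx2-3 promoter: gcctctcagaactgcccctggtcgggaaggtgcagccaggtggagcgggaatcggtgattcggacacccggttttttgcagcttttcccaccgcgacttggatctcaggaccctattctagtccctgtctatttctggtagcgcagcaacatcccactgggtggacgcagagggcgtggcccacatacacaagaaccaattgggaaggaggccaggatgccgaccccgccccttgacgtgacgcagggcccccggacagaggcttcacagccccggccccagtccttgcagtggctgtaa
Nkx2-3 intestine-only: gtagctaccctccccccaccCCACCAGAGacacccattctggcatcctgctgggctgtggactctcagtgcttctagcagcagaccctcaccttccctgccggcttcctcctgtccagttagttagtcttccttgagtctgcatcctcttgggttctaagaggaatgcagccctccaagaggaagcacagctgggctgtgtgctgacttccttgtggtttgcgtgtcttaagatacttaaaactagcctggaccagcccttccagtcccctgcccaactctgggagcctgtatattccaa
Mecom stomach-only: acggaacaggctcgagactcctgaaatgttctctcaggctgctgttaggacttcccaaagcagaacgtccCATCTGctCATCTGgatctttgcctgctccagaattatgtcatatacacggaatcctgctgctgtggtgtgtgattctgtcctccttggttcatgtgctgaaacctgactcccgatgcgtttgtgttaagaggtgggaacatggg
Barx1 stomach-only: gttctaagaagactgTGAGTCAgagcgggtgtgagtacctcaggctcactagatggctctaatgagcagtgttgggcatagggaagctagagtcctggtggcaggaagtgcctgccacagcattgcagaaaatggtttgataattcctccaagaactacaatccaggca
Cdh13 intestine-only: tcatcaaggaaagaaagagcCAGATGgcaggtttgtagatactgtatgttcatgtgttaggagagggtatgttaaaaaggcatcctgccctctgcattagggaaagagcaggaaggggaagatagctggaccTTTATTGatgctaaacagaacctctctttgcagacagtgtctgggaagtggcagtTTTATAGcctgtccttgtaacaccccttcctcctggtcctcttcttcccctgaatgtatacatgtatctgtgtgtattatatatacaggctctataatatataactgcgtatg
Mab21l2 intestine-only: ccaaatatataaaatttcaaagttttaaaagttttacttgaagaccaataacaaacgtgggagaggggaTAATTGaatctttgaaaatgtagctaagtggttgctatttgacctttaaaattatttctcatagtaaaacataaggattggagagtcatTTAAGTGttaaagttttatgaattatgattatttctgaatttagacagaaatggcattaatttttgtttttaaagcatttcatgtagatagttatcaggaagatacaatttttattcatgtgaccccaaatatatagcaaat
Fam13c shared: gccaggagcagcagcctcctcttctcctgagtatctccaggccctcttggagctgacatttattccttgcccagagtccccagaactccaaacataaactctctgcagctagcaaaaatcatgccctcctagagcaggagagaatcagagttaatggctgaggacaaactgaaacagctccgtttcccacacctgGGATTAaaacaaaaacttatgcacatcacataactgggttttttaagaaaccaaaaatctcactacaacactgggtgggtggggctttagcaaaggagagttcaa
Crb2 shared: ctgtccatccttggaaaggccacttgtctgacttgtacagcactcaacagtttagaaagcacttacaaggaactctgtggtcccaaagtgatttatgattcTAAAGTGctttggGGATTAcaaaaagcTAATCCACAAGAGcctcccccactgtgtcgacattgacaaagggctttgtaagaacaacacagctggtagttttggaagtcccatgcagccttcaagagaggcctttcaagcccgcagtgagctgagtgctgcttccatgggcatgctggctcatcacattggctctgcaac
Cox7b2 shared: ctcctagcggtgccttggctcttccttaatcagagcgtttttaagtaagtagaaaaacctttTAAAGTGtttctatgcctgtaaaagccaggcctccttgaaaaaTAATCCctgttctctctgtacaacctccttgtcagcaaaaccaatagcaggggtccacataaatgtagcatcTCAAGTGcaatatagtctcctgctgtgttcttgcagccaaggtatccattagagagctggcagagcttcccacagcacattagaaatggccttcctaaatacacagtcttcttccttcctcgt

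In the *Nkx2-3* promoter (chr19:43612025-43612324) none of the 13 motifs matched, and in its intestine-only region, 6565 bp downstream of the gene start in intergenic DNA (chr19:43618740-43619039), 1 CTCF match was found, a motif present in 5.09% of all regions. The *Mecom* region (chr3:30549076-30549290), intergenic and 1175 bp upstream of the start, held CATCTG 2 times, a motif present in 18.8% of all regions at 200 bp and 26.2% at 300 bp. The *Barx1* region (chr13:48726570-48726738), intergenic and 63656 bp downstream, held 1 AP-1 match, a motif present in 6.94% of all regions at 200 bp. The *Cdh13* region (chr8:118415866-118416165) held 2 matches of the posterior HOX motif, found in 12.8% of all regions, and 1 of CATCTG. The *Mab21l2* region (chr3:86557742-86558041), in an intron of an overlapping gene model 9263 bp upstream of *Mab21l2*, held the homeodomain core and an NKX2 match, found in 8.44% and 15.5% of all regions. The PITX and OTX motif, found in 8.86% of all regions, occurred in the intron of *Fam13c* (chr10:70470608-70470907), which was more open in the intestine. It also occurred upstream of *Crb2* (chr2:37763701-37764000), with 2 matches, and in an intron of *Cox7b2* (chr5:71456972-71457271), both more open in the stomach. These were the regions with this motif among the 5 of largest ratio in each direction, 1 of 5 toward the intestine and 2 of 5 toward the stomach. The NKX2 motif had 1 match at *Crb2* and 2 at *Cox7b2*, and occurred in 1 of 5 regions toward the intestine and 3 of 5 toward the stomach.

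Most accessible regions were found in both organs. Merging peaks that share at least 1 bp gave 131747 regions, of which 86605 (65.7%) had a peak in both lists and are called shared, 16620 (12.6%) were intestine-only and 28522 (21.6%) were stomach-only. The larger number of stomach-only regions depended on which peaks were kept. In the full lists, 1678 intestine-only and 3013 stomach-only regions had a -log10 q of 5 or more. The order turned when peaks under 5 were dropped from both lists, where a weaker peak of the other organ no longer makes a region shared. Among peaks whose -log10 q was 5 or more, which were 56.0% of the intestinal and 49.4% of the stomach list, 9851 regions were intestine-only and 8990 stomach-only, and shared regions rose to 71.9%. With the 50000 peaks of highest -log10 q taken from each list, the classes held 7887 and 7866 regions and 72.7% were shared. The -log10 q of a broad peak is a mean over its width, and 89813 of the 103808 intestinal and 92630 of the 115789 stomach peaks reached 2, the cutoff given in the methods. Below it lay 42.5% of intestine-only and 49.8% of stomach-only regions. An organ-only region is thus a region below the caller's threshold in the other organ, not one shown to be closed there. Chromosomes differed little, from 62.1% shared on chromosome 14 to 69.5% on chromosome 11, with 67.8% on X.

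Organ-only regions were narrow, weak and far from the starts of named genes. The median width was 780 bp for shared regions, 260 bp for intestine-only and 266 bp for stomach-only regions, and 36.7%, 5.84% and 6.85% were wider than 1000 bp. The fold enrichment over the MACS2 background had a median of 4.17 in the intestine and 4.14 in the stomach at shared regions, against 2.80 at intestine-only and 2.78 at stomach-only regions. A shared region spans the peaks of both lists, whereas an organ-only region is 1 peak, which by itself makes shared regions wider. The classes were made from these same peaks, so width and fold enrichment are not independent of class. How much of the contrast comes from this was not tested. The distance to the nearest start of a named gene had medians of 35231, 55343 and 60815 bp.

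**Figure D1:**
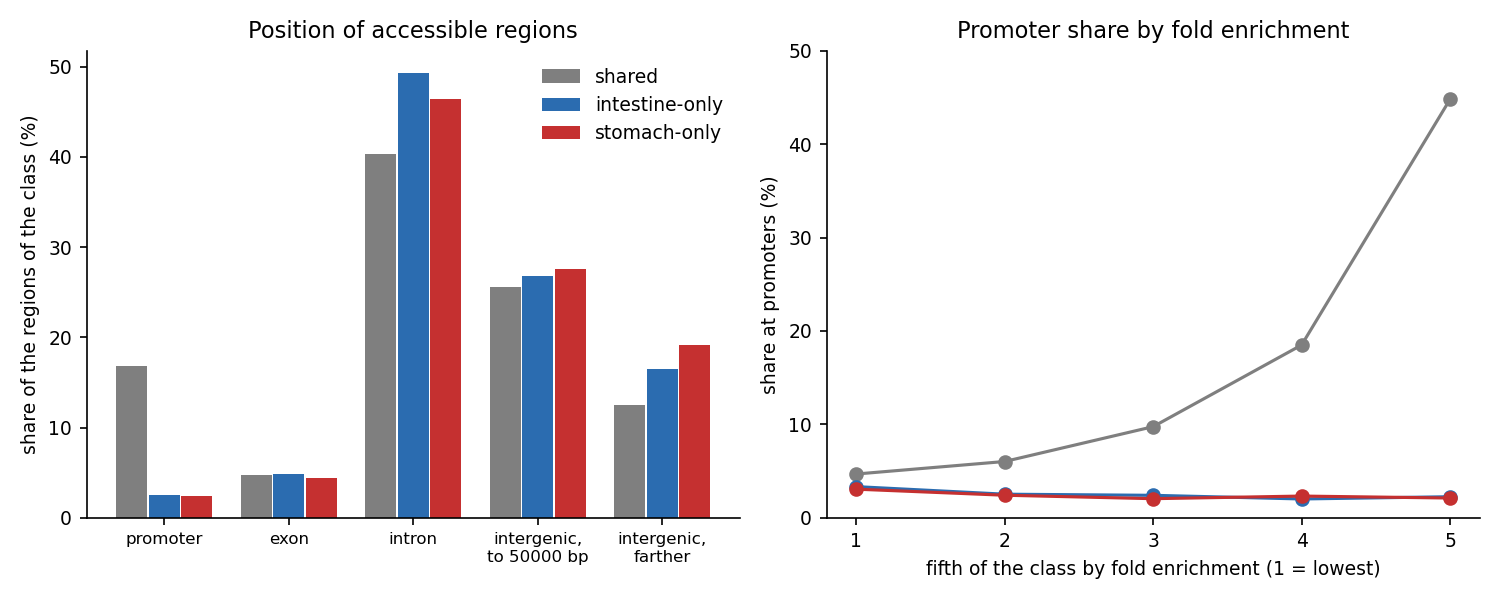
Left, the share of regions of each class (bars, percent) by the position of the midpoint, where a promoter is within 1000 bp of a gene start. Right, the share at promoters (percent) in 5 equal parts of each class ordered by fold enrichment, which rises from 4.69% to 44.8% in shared regions and stays between 2.02% and 3.34% in the organ-only classes.

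Position separated the shared class from both organ-only classes. Midpoints fell in a promoter for 16.8% of shared regions but 2.51% of intestine-only and 2.40% of stomach-only regions. The size of this contrast depended on the definition of a promoter, since these shares were 25.7%, 10.7% and 10.7% within 5000 bp of a start and 13.9%, 0.481% and 0.498% with tested gene models only. Introns held 40.3%, 49.3% and 46.4%, and intergenic DNA more than 50000 bp from any gene start held 12.5%, 16.5% and 19.2%. Seen from the other side, 92.9% of promoter regions were shared, against 62.0% of intronic and 56.9% of distant intergenic regions. The difference was also present among the strongest organ-only regions, as the plot of promoter share by fold enrichment shows. When each class was ordered into 5 equal parts, 4.69% of the weakest shared regions, with a median fold enrichment of 2.75, were promoters, and 44.8% of the strongest, with a median of 7.86. In the strongest part of the organ-only classes, with medians of 3.72 and 3.84, promoters made up 2.26% and 2.12%. These parts were chosen after the data had been seen.

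Where both organs had a peak, the fold enrichments were mostly close, above all at promoters. This holds for fold enrichment only, as the -log10 q of a region may still differ between the lists. The ratio of fold enrichment in the intestine to that in the stomach was taken for each shared region on the log2 scale, relative to the median of all shared regions. Across 14507 promoter regions the fold enrichments had a Spearman correlation of 0.960 and the log2 ratio an SD of 0.17, and across 72098 other regions these were 0.796 and 0.29. Both are descriptions over regions, which share 1 pooled library set per organ. Only 114 regions (0.132%) passed a log2 ratio of 1 toward the intestine and 185 (0.214%) toward the stomach, 0.0414% of promoter regions and 0.406% of the others. With a -log10 q of at least 5 in both lists, 10 and 21 regions remained past 1, so most large ratios rested on a weak peak in the lower organ.

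**Figure D2:**
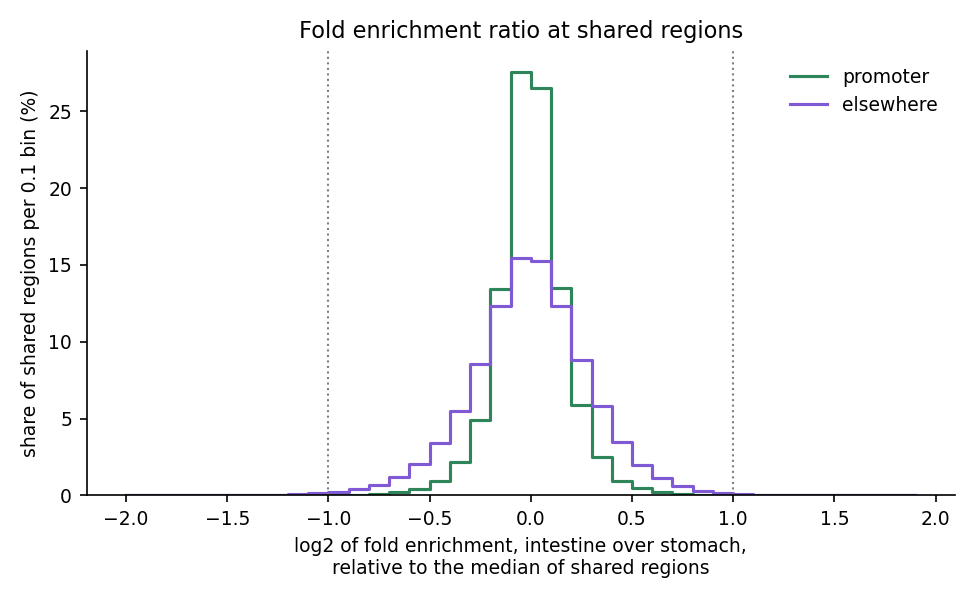
Distribution of the log2 ratio of fold enrichment, intestine over stomach, at shared regions relative to their median, as the percent of regions per bin of 0.1 on the log2 scale, for 14507 promoter regions and 72098 others. Dotted lines mark a log2 ratio of 1 in either direction, and promoters form the narrower peak.

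The shared regions with the largest ratios toward the intestine lay near *Fam13c*, *Epha3*, *Wnt5a*, *Colec10* and *Zfp462*. At *Fam13c* (chr10:70470490-70471025, intron) the fold enrichment was 7.60 in the intestine and 2.59 in the stomach, a relative log2 ratio of 1.54. RNA of *Fam13c* was at 14.0 and 12.1 CPM in the intestine and 5.65 and 6.32 CPM in the stomach (adjusted p = 0.00757 from edgeR). At *Colec10*, a secreted collectin, a region of 1601 bp located 17296 bp upstream of the start had values of 7.26 and 2.68, with RNA at 456 and 417 against 136 and 128 CPM (adjusted p = 0.00141 from edgeR). Region and RNA thus pointed the same way at both genes. *Wnt5a*, a Wnt ligand that guides gut elongation, had its region (7.10 against 2.59) 333167 bp upstream, in an intron of another gene, and its RNA was not called (475 and 382 against 276 and 366 CPM). *Epha3*, an ephrin receptor, had RNA at 73.2 and 90.2 against 103 and 111 CPM, higher in both stomach libraries and so opposite to its region, but not called (adjusted p = 0.223 from edgeR). *Zfp462* RNA was higher in both intestinal libraries and was not called either.

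Toward the stomach, the largest ratios lay near *Cox7b2*, *Gpc5*, *Has2*, *Ankmy2* and *Crb2*. The *Cox7b2* region (chr5:71456848-71457396, intron) had a fold enrichment of 2.68 in the intestine and 9.28 in the stomach, a relative log2 ratio of -1.81. *Cox7b2* itself had 5 counts over the 4 libraries and was not tested. Near *Crb2*, a Crumbs polarity gene, the region (chr2:37763627-37764074) had values of 2.12 and 6.07, and the RNA was at 59.7 and 79.6 against 61.4 and 58.2 CPM. *Has2*, which makes hyaluronan, had values of 2.72 and 8.27 at a region 39404 bp away, and its RNA was at 47.9 and 52.6 against 28.8 and 37.3 CPM, higher in both intestinal libraries but not called (adjusted p = 0.0781 from edgeR). *Gpc5*, a glypican, had RNA at 0.393 and 0.639 against 0.812 and 1.20 CPM, higher in both stomach libraries but not called (adjusted p = 0.310 from edgeR). Of these 5 genes, the 4 that were tested had no RNA call.

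RNA differences between the organs had little counterpart in promoter accessibility. A promoter peak was present in both lists for 84.2% of the 273 genes called higher in the intestine, 88.3% of the 549 called higher in the stomach and 87.3% of the 15394 genes not called. The median relative log2 ratio at these promoters was 0.00 for intestinal, 0.02 for stomach and 0.00 for other genes, with 53.0%, 54.2% and 49.8% above 0. Across 14153 genes, the promoter ratio and the RNA log2 fold change had a Spearman correlation of -0.0323, and across the 715 called genes it was 0.0685. For the mean ratio of shared regions outside promoters within 50000 bp, it was 0.0701 across 9756 genes and 0.134 across the 628 called ones. These correlations run over genes, which are not independent replicates.

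Of 39 *Hox* genes, which pattern the body axis, 36 had a promoter peak in both lists, near the 87.3% of all tested genes. RNA was called higher in the intestine for 17 of them and in the stomach for 3, against 1.68% and 3.39% of all tested genes. With spike-in scaling these calls numbered 15 and 0. *Hoxa10* had 27.6 and 24.2 CPM in the intestinal libraries and 0 counts in the stomach libraries, with promoter fold enrichments of 4.93 and 5.12 (a relative log2 ratio of -0.07). *Hoxa13* (5.51 and 8.21 CPM, and 0 counts in the stomach) had values of 3.31 and 2.61 (0.33), and *Hoxd10* (13.1 and 7.34 CPM, and 0 counts in the stomach) had 5.96 and 4.48 (0.40). The promoters of these genes without stomach RNA were thus open in the stomach. At *Hoxa13* and *Hoxd10* the ratio lay toward the intestine, the organ of their RNA, by more than the SD of 0.17 over shared promoter regions. That SD is a spread between regions, whose median fold enrichment in the intestine was 6.56, and not the error of 1 ratio. The other called *Hox* genes with 0 stomach counts went both ways. *Hoxc10* was at 0.26, while *Hoxa11* was at -0.25, toward the stomach by more than that SD. *Hoxc9* and *Hoxc11* were at -0.17, *Hoxd1* at -0.14, *Hoxd11* at -0.12, *Hoxd12* at -0.04 and *Hoxd9* at -0.02. *Hoxc12* was the exception with an intestinal peak only (2.75), and it had 0 counts in both organs. *Hoxa6* and *Hoxb3* had a promoter peak in neither list. With starts at the outermost 5-prime base of each gene model, 3 pairs of genes (*Hoxb7* and *Hoxb8*, *Hoxc5* and *Hoxc10*, *Hoxd3* and *Hoxd4*) shared 1 peak. *Hoxc5* and *Hoxc10* are not neighbours in their cluster, so these promoters depend on the gene models used. The clusters were open over 26.7% to 36.0% of their length. From *Hoxa* to *Hoxd* they held 21, 28, 20 and 19 shared regions, against 1, 2, 2 and 3 intestine-only and 1, 0, 4 and 3 stomach-only regions.

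Organ-only regions counted by gene differed with the RNA call. Each was assigned to the nearest start among 21551 named gene models, so that 7209 genes had at least 1 intestine-only and 9492 at least 1 stomach-only region. In the lists as deposited, 64.8% of 520 genes called higher in the stomach had more stomach-only than intestine-only regions, and 10.4% had more intestine-only regions. Among 13374 genes not called, these shares were 35.8% and 15.2%, and among 251 genes called higher in the intestine 36.7% and 28.7%. All 3 groups leaned toward the longer stomach list. The comparisons with fewer peaks were added after the data had been seen. With 50000 peaks per list, the lean of the uncalled genes was gone: 17.5% had more intestine-only and 16.8% more stomach-only regions. Of genes called higher in the intestine, 43.4% then had more intestine-only and 17.9% more stomach-only regions, and of genes called higher in the stomach 15.2% and 40.6%. With a -log10 q of at least 5, the called groups had 44.2% and 17.5%, and 16.5% and 40.8%. Regions of an organ were therefore more frequent around genes with more RNA in that organ, although many called genes had equal numbers of both kinds. Across all 8539 tested genes with an organ-only region, the number of intestine-only minus stomach-only regions and the RNA log2 fold change had a Spearman correlation of only 0.159 in the lists as deposited. With fewer peaks, a region counted as organ-only may hold a weaker peak of the other organ.

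**Figure D3:**
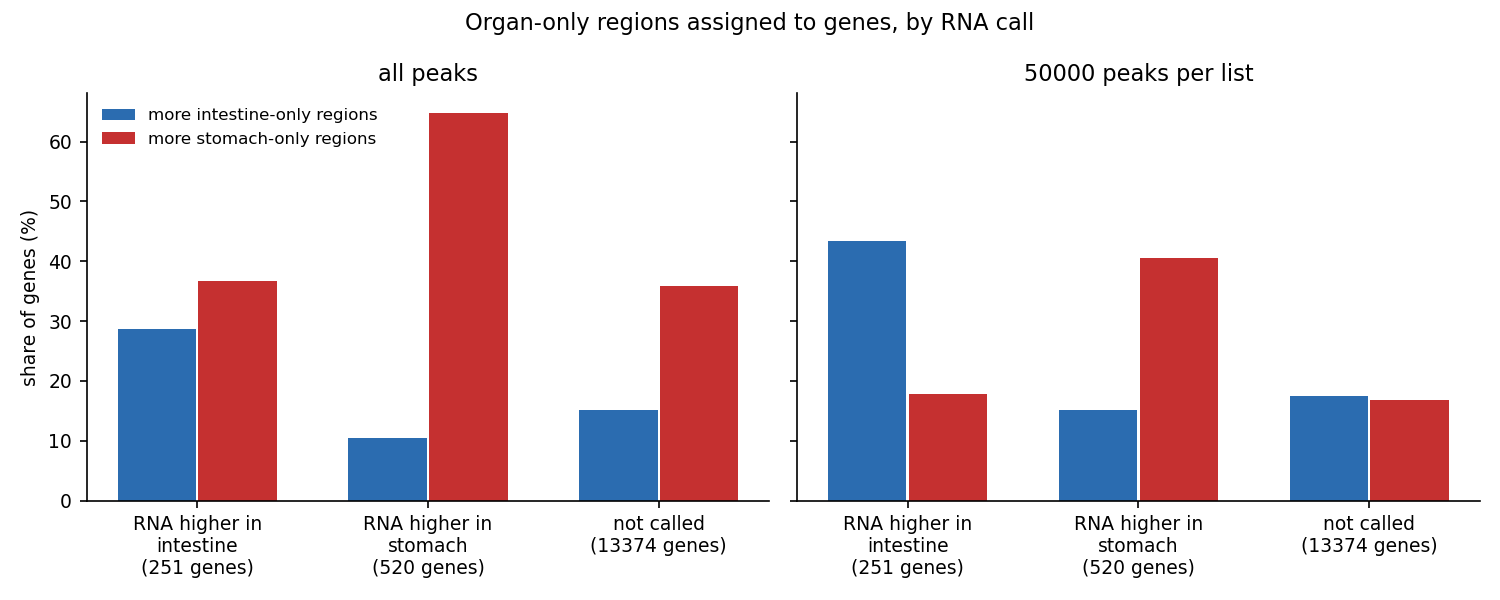
Share of genes (bars, percent) with more intestine-only or more stomach-only regions assigned to them, by RNA call, for all peaks (left) and for the 50000 peaks of highest -log10 q in each list (right). With lists of equal size the 2 called groups mirror each other, at 43.4% and 17.9% against 15.2% and 40.6%.

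Around transcription factors of the stomach mesenchyme, stomach-only regions outnumbered intestine-only regions. The 16 genes of this list had 150 stomach-only and 68 intestine-only regions (68.8% stomach-only), against 63.2% of all 28522 stomach-only and 16620 intestine-only regions together. Past a -log10 q of 5, the list had 63 stomach-only and 37 intestine-only regions, while the share over all was 47.7%. Of the 16 genes, 10 were called higher in the stomach, as the list was chosen with such results known. *Isl1*, a LIM homeobox gene of the posterior stomach, had 17 stomach-only and 2 intestine-only regions, with RNA at 3.46 and 4.95 CPM in the intestine and 66.5 and 42.1 CPM in the stomach (adjusted p = 0.000891 from edgeR). *Six2*, a homeobox gene, had 14 and 1, with RNA at 5.76 and 13.1 against 197 and 149 CPM (adjusted p = 0.000834 from edgeR). *Gata3*, a zinc finger factor, had 21 and 8, with RNA at 0.253 and 0.774 against 13.0 and 2.88 CPM (adjusted p = 0.0265 from edgeR). Both stomach libraries lay above both intestinal libraries for these genes, but *Gata3* and *Nkx2-5* (0.478 and 1.18 against 32.1 and 6.40 CPM, with 5 and 0 regions) were several times higher in stomach replicate 1, as was *Tlx1*, and a part of spleen mesenchyme in this difference was not tested. *Mecom* had 11 and 0 regions, *Pitx1*, a homeodomain factor, 10 and 3, and *Sox9*, an HMG box factor, 7 and 5. At a -log10 q of at least 5, *Isl1* had 7 and 1, *Six2* 5 and 2, *Gata3* 8 and 1, *Mecom* 8 and 1 and *Pitx1* 4 and 1 stomach-only and intestine-only regions, while *Sox9* had 0 and 5.

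The 16 intestinal transcription factors had 69 stomach-only and 39 intestine-only regions, and the stomach-only share of 63.9% was close to that of all organ-only regions. With a -log10 q of at least 5 they had 31 and 40, a share of 43.7% against 47.7% over all. Of 15 tested, *Nkx2-3* and *Hand1* were called higher in the intestine. *Hand1*, a basic helix-loop-helix factor, had 3 intestine-only and 2 stomach-only regions, and 5 and 0 at a -log10 q of at least 5. *Nkx2-3* moved from 2 and 2 to 5 and 1. Counts did not follow RNA everywhere: *Osr1* had 11 stomach-only and 4 intestine-only regions and *Isl2* 7 and 0, with no RNA call, and *Tbx3* had 13 of each. At the stricter threshold these were 6 and 2 for *Osr1*, 1 and 1 for *Isl2* and 7 of each for *Tbx3*.

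Among signalling genes, the counts around called members were mixed. Of 14 genes for FGF and retinoic acid, 5 were called higher in the stomach and *Aldh1a1* in the intestine, and spike-in scaling left 2 and 1 calls. *Rarb*, a retinoic acid receptor, had 18 stomach-only and 3 intestine-only regions, with RNA at 43.9 and 45.9 against 125 and 119 CPM (adjusted p = 0.000592 from edgeR). *Fgf10*, a ligand made by mesenchyme, had 4 and 0, with RNA at 32.8 and 43.3 against 139 and 88.8 CPM (adjusted p = 0.00858 from edgeR). *Aldh1a1*, which makes retinoic acid and was called higher in the intestine at 555 and 357 against 11.8 and 14.6 CPM (adjusted p = 0.000319 from edgeR), had 2 of each. *Cyp26a1*, which degrades retinoic acid (0.730 and 0.875 against 15.9 and 16.9 CPM), had 3 stomach-only and 2 intestine-only regions, and *Fgf7* (0.0843 and 0.236 against 3.22 and 6.32 CPM) had 0 and 1. Once the threshold was raised to a -log10 q of 5, *Rarb* had 5 stomach-only and 3 intestine-only regions, *Fgf10* 1 and 0, *Aldh1a1* 0 and 2, *Cyp26a1* 2 and 0 and *Fgf7* 2 and 0. At that threshold the larger count thus lay in the organ of higher RNA for these 5 genes. Not every member called higher in the stomach is among them, so this does not describe all called genes of the list. The 14 genes together had 53 stomach-only and 27 intestine-only regions, a stomach-only share of 66.2% against 63.2% over all organ-only regions, and 20 and 14 at the stricter threshold (58.8% against 47.7%).

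Of 27 tested Wnt ligands and antagonists, 7 were called higher in the stomach and *Dkk2* in the intestine, and with spike-in scaling 2 and 0. The stomach-only share of the organ-only regions around the whole list was 66.0% as deposited and 44.6% at a -log10 q of at least 5, against 63.2% and 47.7% over all. *Rspo2*, an enhancer of Wnt signalling, had 10 stomach-only and 1 intestine-only region, with RNA at 13.9 and 12.8 against 26.3 and 46.5 CPM (adjusted p = 0.0336 from edgeR). *Sfrp2*, a secreted antagonist, had 10 and 2, with RNA at 51.3 and 75.3 against 127 and 151 CPM (adjusted p = 0.0293 from edgeR). *Dkk2*, another antagonist (118 and 102 against 43.5 and 37.8 CPM), had 9 stomach-only and 4 intestine-only regions as deposited, and 2 and 6 at the stricter threshold, so its order turned, while *Rspo2* had 2 and 0 and *Sfrp2* 2 and 1. Among the others called higher in the stomach, *Wnt2b* had 3 stomach-only and 2 intestine-only regions and *Wnt3* 1 and 0. At the stricter threshold both had 0 stomach-only and 1 intestine-only region, and *Sfrp4* had 0 of each at either setting. In the BMP list of 17, 2 calls were toward the stomach and 1 toward the intestine (0 and 1 with spike-in scaling). Its stomach-only shares were 62.8% and 45.9%. *Bmp2* had 20 stomach-only and 6 intestine-only regions without an RNA call (2.47 and 2.93 against 2.58 and 5.51 CPM). *Bmp3*, called higher in the intestine (39.1 and 43.7 against 2.99 and 6.09 CPM, adjusted p = 0.00659 from edgeR), had 8 stomach-only and 5 intestine-only regions, and 5 and 1 at the stricter threshold, against its RNA. *Bmp6* and *Chrdl1*, called higher in the stomach, had 4 and 2 stomach-only regions and 0 intestine-only regions as deposited. At the stricter threshold *Bmp6* had 1 stomach-only and 2 intestine-only regions, *Chrdl1* 1 of each and *Bmp2* 9 and 3. Of 13 Hedgehog response genes edgeR and DESeq2 called 0, and 1 had an unadjusted p under 0.05 in edgeR. This gene, *Foxf2* (146 and 140 against 74.1 and 82.5 CPM), also passed the adjusted threshold (adjusted p = 0.00582 from edgeR) and missed the call only on its log2 fold change of 0.87 (standard error 0.12). They had 43 stomach-only and 40 intestine-only regions, a stomach-only share of 51.8% against 63.2% over all, and 22 and 26 at the stricter threshold (45.8% against 47.7%). All 13 promoters had a peak in both lists, near the 87.3% of all tested genes.

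The genes with most organ-only regions also had many shared regions. *Lphn2* led the intestine-only count with 21, beside 19 stomach-only and 65 shared regions. *Auts2* led the stomach-only count with 31, beside 10 intestine-only and 70 shared regions. *Foxp1* and *Rbms3* were among the first 10 for both organs, and only *Gfra1*, a receptor of glial cell line-derived neurotrophic factor, was called among these 18 genes (234 and 161 against 478 and 387 CPM, adjusted p = 0.0167 from edgeR). It had 23 stomach-only and 8 intestine-only regions.

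Around the organ factors, differences were mixed with shared regions within 100000 bp on either side of the start. At *Nkx2-3*, whose RNA was at 153 and 180 CPM in the intestine and 2.06 and 0.204 CPM in the stomach (adjusted p = 0.00108 from edgeR), the promoter (chr19:43611993-43612827) had a fold enrichment of 6.51 in the intestine and 2.74 in the stomach, a relative log2 ratio of 1.24. It was the only one of 21 shared regions past 1, and 6 of the 21 were above 0. The locus held 7 intestine-only regions with fold enrichments of 3.01 to 4.39 and 3 stomach-only regions of 2.26 to 3.63, of which 2 lay 2496 and 4470 bp downstream of the start. The stomach thus had peaks of its own beside an *Nkx2-3* gene with little RNA there.

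**Figure D4:**
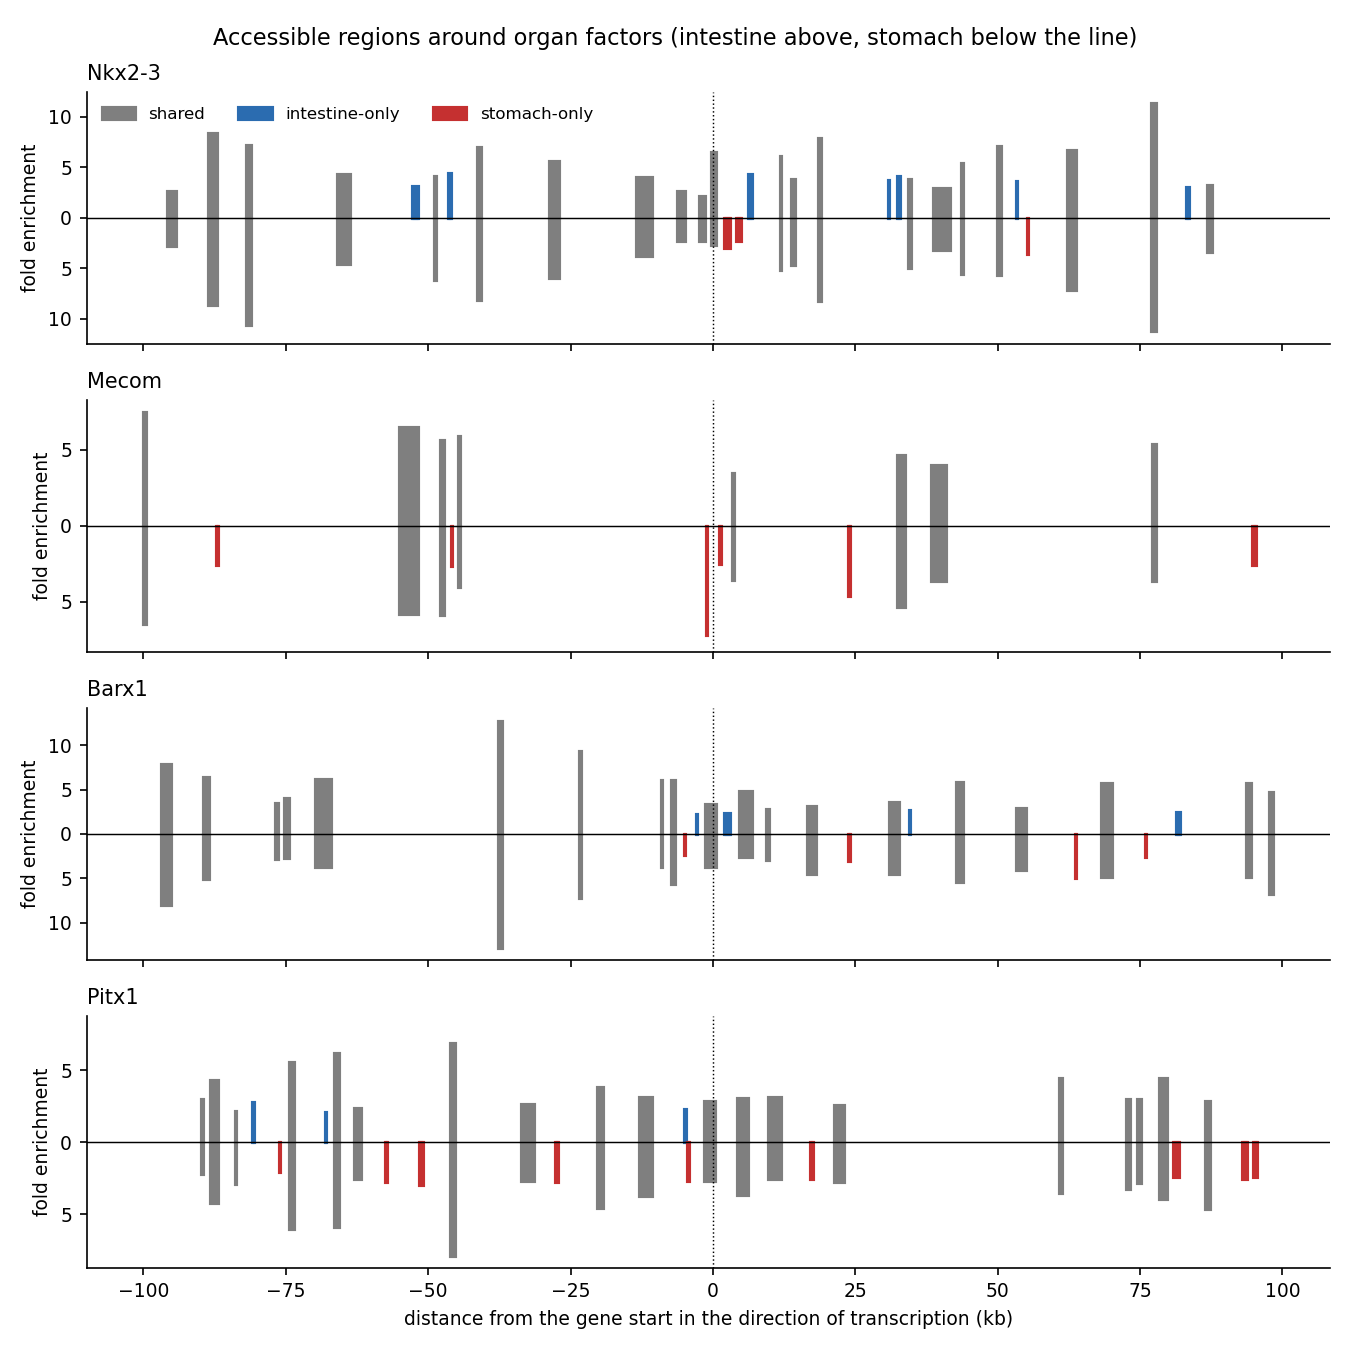
Accessible regions around *Nkx2-3*, *Mecom*, *Barx1* and *Pitx1*, drawn at their distance from the gene start (kb, dotted line at 0) and in their width with an outline that keeps narrow regions visible. Bars above the line give the fold enrichment in the intestine and bars below it that in the stomach. *Mecom* has 6 stomach-only and 0 intestine-only regions, and *Nkx2-3* has 7 intestine-only and 3 stomach-only regions.

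*Mecom*, a zinc finger factor with 0.197 and 0.202 CPM in the intestine and 38.8 and 52.5 CPM in the stomach (adjusted p = 2.52e-05 from edgeR), had a promoter peak in neither list. It had 6 stomach-only and 0 intestine-only regions beside 8 shared ones. The highest, 215 bp wide and 1175 bp upstream, lay just outside the 1000 bp promoter window and had a fold enrichment of 7.16. Another of 4.62 lay in an intron 23922 bp downstream. The 4 others were between 2.53 and 2.61. At *Barx1* (0.534 and 1.48 against 627 and 557 CPM, adjusted p = 5.94e-05 from edgeR) the promoter values were close, 3.40 and 3.76, and 4 regions of each organ were found. Counted by nearest gene, *Barx1* also had 4 of each as deposited, but 5 stomach-only and 0 intestine-only regions at a -log10 q of at least 5. *Pitx1* (7.73 and 13.1 against 159 and 219 CPM, adjusted p = 0.000319 from edgeR) had 9 stomach-only and 3 intestine-only regions, and *Hand1* (93.3 and 89.8 against 1.94 and 0.280 CPM, adjusted p = 0.00157 from edgeR) 6 intestine-only and 4 stomach-only regions. The promoters of *Pitx1* (2.82 and 2.73) and *Hand1* (2.96 and 3.01) barely differed in fold enrichment. Their -log10 q in the intestine and the stomach was 3.79 and 5.79 for *Pitx1*, 16.8 and 5.31 for *Hand1* and 8.71 and 30.6 for *Barx1*. For these genes it was higher in the organ with more RNA. Promoters of other called genes went the other way, such as *Sfrp2* at 49.5 and 37.7 and *Rspo2* at 36.0 and 26.8, both with more RNA in the stomach. *Wnt2*, a ligand called higher in the stomach at 0.0562 and 0.202 against 1.25 and 3.03 CPM (adjusted p = 0.0122 from edgeR), had 4 stomach-only and 0 intestine-only regions, yet its promoter was higher in the intestine (5.81 against 4.70). *Wnt11* had 5 stomach-only and 7 intestine-only regions although its RNA was higher in the stomach (6.69 and 5.75 against 14.2 and 11.5 CPM, adjusted p = 0.0285 from edgeR). By nearest gene, *Wnt2* had 4 stomach-only and 1 intestine-only regions and *Wnt11* 4 of each as deposited, and 2 of each and 4 and 3 at the stricter threshold. *Hoxa11* and *Nkx3-2* had 2 and 3 stomach-only and 1 and 0 intestine-only regions. Among factors of these lists *Foxl1*, a forkhead gene of subepithelial cells, was the other promoter past 1, with a fold enrichment of 4.47 in the intestine against 2.04 in the stomach, without an RNA call (20.9 and 24.5 against 11.3 and 19.6 CPM).

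The organ-only regions of highest fold enrichment outside promoters were very narrow, with 4 of the 5 highest of each organ at most 200 bp wide. Of the intestine-only regions, the highest lay in an intron of *Dlg2*, a synaptic scaffold gene, with a fold enrichment of 8.96 over 132 bp (chr7:91267904-91268035). The next, in an intron of *Cdh13*, which encodes T-cadherin, had 8.25 over 453 bp (chr8:118415790-118416242), and *Cdh13* RNA was at 42.8 and 45.3 CPM in the intestine and 4.38 and 4.74 CPM in the stomach (a log2 difference of 3.27 with a standard error of 0.25, and an adjusted p of 0.000552 from edgeR). *Gpc5* (8.17), *Tmem178* (8.14) and *Upk1a* (7.97) followed. RNA of *Gpc5* and *Tmem178* was higher in both stomach libraries, opposite to their regions, but not called. *Tmem178* was at 6.91 and 7.67 against 13.6 and 14.4 CPM (adjusted p = 0.00688 from edgeR), with a log2 fold change of -0.94. *Dlg2* RNA was not called, and *Upk1a* was not tested. Among stomach-only regions, *Il31ra* (28.0 over 128 bp, chr13:112578179-112578306) and the region nearest to *Elp6* (27.5 over 123 bp, chr9:110281246-110281368) stood far above the rest. *Il31ra*, an interleukin receptor, had 0 counts in the intestine and 16 in the stomach. Next came *Dpy19l1* (16.4 over 132 bp) and *Alk* (9.71 over 475 bp). The *Il31ra* and *Dpy19l1* regions had peaks in both *Eed* KO lists and the *Elp6* region in neither, and the cause of such narrow high peaks was not tested. *Hey1*, a target of Notch signalling, had a stomach-only region with a fold enrichment of 6.01 at a gene model 39230 bp downstream, and its RNA was at 9.47 and 10.2 against 20.3 and 20.01 CPM (adjusted p = 0.0100 from edgeR). Of the 5 highest regions at promoters of each organ, only those of *Ctla2b* and *Mettl21e* lay at the start of the named gene. The others were at other gene models, up to 148212 bp away, so that *Kif20b*, *Ssr3*, *Actr2* and *Prkcq* name the nearest gene only.

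Wide organ-only regions were rare. The 5 widest intestine-only regions spanned 2667 to 3302 bp, near *Tbc1d4*, *Dpf3*, *Rnd3*, *Mab21l2* and *Adamts1*. *Mab21l2*, a developmental gene, had a region of 2695 bp with a fold enrichment of 3.39 (chr3:86556545-86559239) that was seen again in the *Eed* KO intestine and not in the *Eed* KO stomach. Its RNA was at 519 and 598 CPM in the intestine and 3.45 and 0.255 CPM in the stomach (a log2 difference of 8.27 with a standard error of 0.84, and an adjusted p of 0.00156 from edgeR). *Dpf3*, a chromatin remodelling subunit, was also called higher in the intestine (5.34 and 3.87 against 1.71 and 1.17 CPM, adjusted p = 0.0100 from edgeR). The 5 widest stomach-only regions, 3112 to 3877 bp near *Mgat5*, *Atp13a5*, *Ajap1*, *Tle4* and *Akp-ps1*, had no called gene among them.

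A promoter peak in 1 list only was uncommon and weak. It was found for 90 tested genes in the intestine and 160 in the stomach, with median fold enrichments of 2.73 and 2.77. Of the 90 genes, 7 (7.78%) had a call toward the intestine and 7 (7.78%) one toward the stomach. For the 160 genes these were 7 (4.38%) and 13 (8.12%), against 1.68% and 3.39% of all tested genes. Genes with the peak in the organ of higher RNA included *Anxa1*, which binds phospholipids (2.89, with RNA at 14.7 and 15.0 against 2.06 and 3.11 CPM, adjusted p = 0.0007 from edgeR), and *Gucy2f*, a guanylate cyclase (3.48 in the stomach, with RNA at 0.140 and 0.101 against 2.03 and 2.55 CPM, adjusted p = 0.00111 from edgeR). *Nr1h4*, the bile acid receptor, had an intestinal peak of 2.93 and RNA at 0.618 and 0.538 CPM in the intestine and 0 counts in the stomach. The opposite was also seen. *Ppargc1a*, a coactivator of mitochondrial genes, had a stomach peak of 4.05 and RNA at 22.6 and 23.2 CPM in the intestine against 4.35 and 5.53 CPM in the stomach (adjusted p = 0.000688 from edgeR), and *Lnx1*, a ubiquitin ligase, had an intestinal peak of 5.46 and RNA at 0.253 and 0.337 against 1.25 and 1.22 CPM (adjusted p = 0.0114 from edgeR). In all, 20 genes were called higher in the organ with the peak and 14 in the other organ. These counts were 44 and 14 at a -log10 q of at least 5, 17 and 5 with a promoter window of 5000 bp, and 26 and 14 with calls from DESeq2. The larger count was thus that of the organ with the peak, by a margin that depended on the setting.

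Sequence separated the organ-only classes for a few motifs. TAATCC, the PITX and OTX motif, occurred in 11.7% of 300 bp windows centred on stomach-only regions, 7.47% on intestine-only and 8.19% on shared regions. The posterior HOX and CDX motif CNATAAA went the other way, with 16.5% of intestine-only, 13.4% of stomach-only and 11.9% of shared regions. Smaller differences were found for forkhead TGTTTAC (7.17% intestine-only, 5.56% stomach-only), AP-1 TGANTCA (10.4% and 12.6%) and the homeodomain core TAATTG (8.12% and 10.1%). For the other 8 motifs the organ-only classes differed by less than 1 percentage point. *Pitx1* had more RNA in the stomach and 17 *Hox* genes more in the intestine, and whether these factors bind the matches was not measured.

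**Figure D5:**
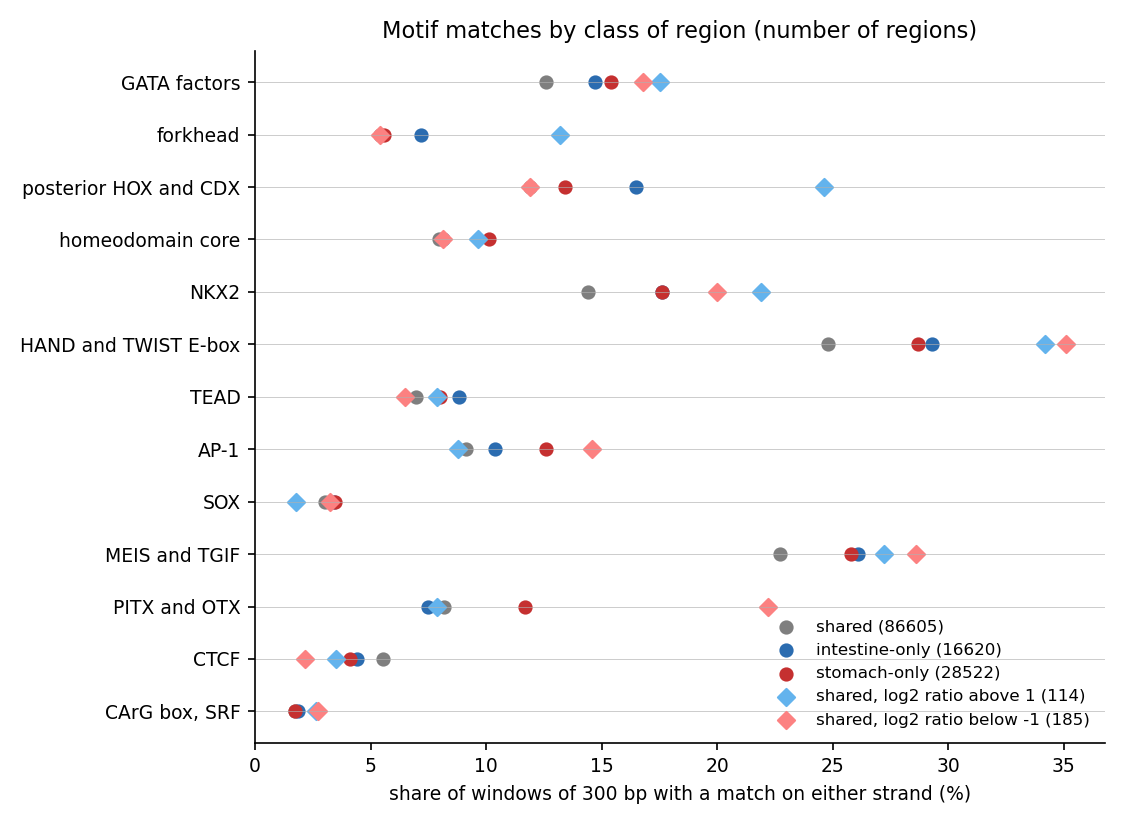
Share of 300 bp windows (percent) with at least 1 match of each motif on either strand, for shared, intestine-only and stomach-only regions (circles) and for shared regions past a log2 ratio of 1 in each direction (diamonds), with the number of regions in parentheses. TAATCC (PITX and OTX) reaches 22.2% in shared regions higher in the stomach, and CNATAAA (posterior HOX and CDX) 24.6% in those higher in the intestine.

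For 4 of these 5 motifs, shared regions with a large ratio differed in the same direction in 300 bp and in 200 bp windows, a comparison made after the class shares were seen. Among the 185 regions higher in the stomach, 22.2% held TAATCC, against 7.89% of the 114 higher in the intestine. CNATAAA was found in 11.9% and 24.6% of these regions, TGTTTAC in 5.41% and 13.2%, and TGANTCA in 14.6% and 8.77%. TAATTG had no stable order, with 8.11% and 9.65% in 300 bp windows but 7.57% and 5.26% in 200 bp windows, where 14 of 185 and 6 of 114 regions held it. Base composition differed between classes, with a median GC content of 49.7% in shared, 48.0% in intestine-only and 46.7% in stomach-only windows, so the shares were also taken within 6 bins of GC content. In each bin TAATCC was more frequent in stomach-only than in intestine-only regions, for instance 12.2% against 8.06% at 45 to 50% GC, and CNATAAA was more frequent in intestine-only regions, 17.1% against 11.6% in that bin. The order was also the same in all 6 bins for TGTTTAC and TAATTG. For TGANTCA it turned in the bin of 60% GC or more, which held 348 intestine-only and 402 stomach-only regions, with 8.62% and 5.97%. The windows of narrow regions reach past the region itself.

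The *Eed* KO lists come from other libraries and show which organ-only regions were seen again. Of intestine-only regions, 54.0% had a peak in the *Eed* KO intestine and 33.7% in the *Eed* KO stomach. Of stomach-only regions, 35.1% had a peak in the *Eed* KO intestine and 49.6% in the *Eed* KO stomach. Each class was seen again more often in its own organ, while 38.3% and 41.6% were found in neither list. Shared regions were found in both *Eed* KO lists in 86.5% of cases. The share seen again in the same organ rose with fold enrichment, from 38.7% to 74.5% from the weakest to the strongest part of intestine-only regions and from 32.6% to 73.1% over those of stomach-only regions. Loss of *Eed* and lack of repetition cannot be told apart as sources of the regions not seen again. Among regions seen again in the same organ alone, 896 of 6641 stomach-only and 317 of 4647 intestine-only windows held TAATCC, and 15.1% and 18.6% held CNATAAA.

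The lists give no read counts, so the counting error of a fold enrichment is unknown and no difference between the organs was tested. A nearest gene need not be the target of a region.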

How the data were processed

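Cells were labelled by Cre from the *Bapx1* locus and sorted from E13.5 embryos, with dead cells and debris removed. For ATAC-seq, the authors aligned reads with BWA 0.7.8, pooled the libraries of a condition and called broad peaks with MACS2 2.1.2, and the deposited lists give the fold enrichment and the -log10 q of each peak. For RNA-seq, the authors trimmed reads with Trimmomatic 0.32, aligned them with STAR 2.5.1b and deposited counts per gene. Coordinates are those of GRCm38 (mm10).

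Peaks sharing at least 1 bp were merged in Python, and bedtools 2.31.1 gave the same number of merged regions from the control lists. Regions were placed by their midpoint into promoter, exon, intron or intergenic DNA within or beyond 50000 bp of a gene start, with gene starts from the exon coordinates of the count files, the outermost 5-prime base of each of 43276 gene models. Nearest genes were taken among 21551 named models. Clone and small RNA names beyond the classes first listed were also left out. The log2 ratio used the width-weighted fold enrichment of each organ. RNA was tested with edgeR 4.0.16 (quasi-likelihood F-test, TMM, Benjamini-Hochberg) in R 4.3.3 over 8 embryonic libraries, and with DESeq2 1.42.0 as an alternative, and the code was tested on simulated data. A count of 0 allows up to 3 counts, or 0.0992 CPM in the shallowest control library, which covers counting error only. The study calls its sequencing replicates biological, but the labels do not say that RNA replicates came from separate embryos, so p-values measure the spread between these libraries. The log2 fold changes are of the intestine over the stomach. Tables and plots were made with Python 3.11.15, pandas 2.3.3, numpy 2.4.6, scipy 1.17.1 and matplotlib 3.10.9.

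Named genes were the members of the gene lists, the 10 genes with most organ-only regions per organ, the 5 strongest, widest and most different regions of each kind, and called genes with a promoter peak in 1 list. Members and lists were chosen with earlier results of these data known. Some items are not reported here. The alternatives changed the peak threshold, list size, overlap, gap, promoter rule, gene models, motif window, and the scaling, filter, tool, samples and pairing of the RNA test.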

Additional observations from a re-analysis of the deposited data

How the results depend on the processing

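Of 123 alternative values for 37 results, 64 stayed within a set tolerance and 59 moved. The tolerance was 1.5 times the value for counts (32 of 48 within it), the 95% binomial interval for shares, which is narrow at these numbers (8 of 49), and a 95% interval for differences of motif shares (24 of 26). In 200 bp windows the stomach-only minus intestine-only shares of NKX2 and SOX changed sign within that interval, from 0.0503 and 0.0444 to -0.0678 and -0.0831 percentage points. With a -log10 q of at least 5 the order of the organs turned for the organ-only shares, for genes with an organ-only region and for genes with a promoter peak in 1 list. Keeping peaks whose -log10 q was 2 or more gave 68.8% shared, 14.3% intestine-only and 16.9% stomach-only regions, a threshold of 5 gave 71.9%, 14.7% and 13.4%, and 50000 peaks per list gave 72.7%, 13.7% and 13.6%. Merging over gaps of up to 250 bp gave 66.0% shared. Of intestinal peaks 84.0% and of stomach peaks 75.4% lay in shared regions, and 65.7% and 58.9% overlapped by at least 50% of each peak.

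The promoter share of intestine-only, stomach-only and shared regions became 4.14%, 3.39% and 27.1% at a -log10 q of at least 5 and 4.40%, 4.00% and 30.1% with 50000 peaks per list. It became 10.7%, 10.7% and 25.7% within 5000 bp, 2.80%, 2.77% and 17.9% with any overlap, and 0.481%, 0.498% and 13.9% with tested gene models only. At a -log10 q of at least 2 the share among shared regions was 19.1%.

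At a -log10 q of at least 5, 190 genes had a promoter peak in the intestinal list only and 145 in the stomach list only, 44 genes with a peak in 1 list were called higher in that organ (20 as deposited), and 5399 genes had an intestine-only and 5153 a stomach-only region. Within 5000 bp, 5 were called higher in the other organ (14 within 1000 bp). At a -log10 q of at least 2, of at least 5, and in 50000 peaks per list, 3 settings chosen for this result after seeing the data, 39.8%, 44.2% and 43.4% of genes called in the intestine and 51.2%, 40.8% and 40.6% of genes called in the stomach had more regions of their own organ. Ratios past 1 fell to 10 and 21 regions with a -log10 q of at least 5 in both lists.

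In the *Eed* KO lists, 50.5% (threshold 5) and 47.3% (50000 peaks) of intestine-only regions were seen again in the intestine and 29.3% (50000 peaks) in the stomach. Of stomach-only regions, 55.7% and 48.4% were seen again in the stomach and 32.0% and 31.0% in the intestine. In 200 bp windows, stomach-only minus intestine-only shares were 1.29 percentage points for the homeodomain core and 3.49 for PITX and OTX, against 1.98 and 4.24.

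The RNA test called 70 genes higher in the intestine and 85 in the stomach with spike-in scaling, which shifted the median log2 fold change by 0.30. With it, 15 *Hox* genes were called in the intestine and 0 in the stomach. Stomach calls fell from 7 to 2 among Wnt genes, from 5 to 2 among those of FGF and retinoic acid and from 2 to 0 among BMP genes. Leaving out 1 control library gave 149 to 173 and 214 to 330 genes, where the lone library was assumed to vary like the others. DESeq2 called 327 and 653. With a replicate block, 372 and 751 genes were called, and the deviations of same-numbered control libraries had a correlation of 0.265 over 16218 genes, but replicate numbers are not stated to pair samples. The causes of these shifts were not tested. Pooled lists allow no replicate check of a peak, and regions near the caller's threshold may fall on either side of it.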
